A study of Mus musculus with 23 samples.

Results

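The genes described here are 10 genes of eicosanoid synthesis, measured by RNA-seq in microglia sorted from mouse retinas. They were chosen by name, as the rows whose Ensembl identifier maps to Pla2g4a, Pla2g6, Ptgs1, Ptgs2, Ptges, Hpgds, Tbxas1, Alox5, Alox5ap and Lta4h, and are 10 of the 35825 genes in the table. All 10 passed the filter on low values, which asked for 3 or more libraries with 10 or more normalized counts and left 17102 genes. The 23 libraries fall into 6 groups. CX3CR1-GFP mice (WT), which are heterozygous for a green fluorescent protein placed in the Cx3cr1 gene, and Spp1 KO; CX3CR1-GFP mice (KO), which carry the same reporter on a global deletion of Spp1, each gave 4 libraries from naïve retinas without treatment and 4 libraries at 4 weeks after a rise in intraocular pressure (IOP) made by injecting microbeads into the anterior chamber. At day 7 after crush of the optic nerve (ONC) there were 3 WT and 4 KO libraries. Retinas of several mice were pooled before dissociation and live GFP+ cells were sorted, so a library is a pool of mice, and the p-values below measure the spread between such pools. The labels give no age or sex.

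Eicosanoids are short-lived lipid signals made from arachidonate. A phospholipase A2 frees arachidonate from membrane phospholipids, and a cyclooxygenase turns it into prostaglandin H2, from which terminal synthases make prostaglandin E2, prostaglandin D2 or thromboxane A2. In the other arm, 5-lipoxygenase with its activating protein makes leukotriene A4, which leukotriene A4 hydrolase turns into the neutrophil attractant leukotriene B4. In brain, microglia are known as the main site of cyclooxygenase-1, whereas cyclooxygenase-2 is the inducible form and is also made by neurons.

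Facts of the whole series that touch these genes are given first. Spp1, the deleted gene, was not low in every library labelled KO: it reached 4750 to 6811 normalized counts in KO ONC replicates 1, 2 and 4, 761 and 811 in KO IOP replicates 4 and 2 and 350 in KO naïve replicate 1, against 334 in the lowest WT library. The other 6 libraries labelled KO had 6.78 to 81.6. These libraries are therefore called "labelled KO" below, and every direction drawn from them carries this limit. The summed level of 9 microglia markers (among them P2ry12, Tmem119, Csf1r, Sall1 and Aif1) was 588082 to 781388 in WT naïve but 245719 to 293700 in labelled KO naïve replicates 1, 2 and 4, and 372256 and 419800 in WT IOP replicates 1 and 4. The sum of 8 rod photoreceptor markers was 271336 to 680715 in labelled KO naïve, against 344519 to 420719 in WT naïve and 169851 to 435902 in WT ONC. Lens crystallins and Mip summed to 27976 to 203739 in the 4 WT IOP libraries and to at most 2746 in any other. Cx3cr1 was 952 to 1233 in labelled KO IOP and at least 26836 in WT IOP, and the Y-linked gene Ddx3y was at most 3.05 in labelled KO IOP and at least 633 in WT IOP. Within the libraries labelled KO, Cx3cr1 was 9417 to 26283 in naïve and 12869 to 46130 after ONC. In labelled KO naïve, Ddx3y was 28.09 in replicate 3 and 1302 to 1713 in replicates 1, 2 and 4. It was also 0 in WT naïve replicate 3, and 9.206 and 3.509 in WT ONC replicates 2 and 3. The part of lens, Cx3cr1 and Y-linked transcripts in the differences between these groups, including labelled KO IOP against labelled KO naïve, was not tested for any gene. Of the markers of other leukocytes, 4 of 7 for neutrophils stayed under 10 normalized counts in every library and 5 of 7 under 50. The sums of the 7 therefore rest mostly on the others. They were 7695 to 10708 in WT naïve, 12121 to 18700 in WT ONC, 3266 to 9868 in labelled KO naïve and 16690 to 20192 in labelled KO ONC. The 5 markers of platelets and megakaryocytes summed to 1877 to 4828 in WT naïve and 255.5 to 549.8 in WT ONC. In labelled KO this sum was 1571 to 3905 in naïve and 659.1 to 2793 after ONC. The part of neutrophils and platelets in the differences after ONC was not tested. For mast cells 4 of 5 stayed under 50, and the 5 lymphocyte markers summed to at most 293. The 7 markers of border macrophages and monocytes summed to 14343 to 28217 in WT naïve and to 1940 to 6085 in WT ONC, and to 9836 to 24562 in labelled KO naïve and 21866 to 29621 in labelled KO IOP. The monocyte receptor gene Ccr2 was 1217, 2177, 116.5 and 2145 in labelled KO IOP, against at most 94.93 in labelled KO naïve and 463.9 in WT IOP. The part of these cells in the differences of labelled KO IOP was not tested. In bulk libraries, fewer cells of a type and less RNA per cell cannot be told apart.

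Promoter stretches of 3 genes are shown, chosen after their values were seen: both cyclooxygenase genes, which stood at opposite ends of the levels, and Tbxas1, which followed the microglia markers most closely of the 10 (Pearson r = 0.96). Each is the 250 bases before a RefSeq start of the gene (GRCm38.p6), on the strand of the gene, from 5′ to 3′. For Tbxas1 the start used, 38918986, lies inside the gene as annotated for the counts (38875404 to 39084585). Capitals mark the letters of the motifs searched on both strands: TATAAA, TGACGTCA (cyclic AMP response element), TGANTCA (AP-1), CACGTG (E-box), GAGGAAG (core of the PU.1 site), GGGCGG (GC box), TTGCNNAA (C/EBP) and the NF-kB motif.
Ptgs1, chr2:36230176-36230425, + strand: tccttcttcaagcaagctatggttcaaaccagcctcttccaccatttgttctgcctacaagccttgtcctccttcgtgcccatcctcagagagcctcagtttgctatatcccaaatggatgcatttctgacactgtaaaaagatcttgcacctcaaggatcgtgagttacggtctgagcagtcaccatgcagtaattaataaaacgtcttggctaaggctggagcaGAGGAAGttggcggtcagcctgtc
Tbxas1, chr6:38918736-38918985, + strand: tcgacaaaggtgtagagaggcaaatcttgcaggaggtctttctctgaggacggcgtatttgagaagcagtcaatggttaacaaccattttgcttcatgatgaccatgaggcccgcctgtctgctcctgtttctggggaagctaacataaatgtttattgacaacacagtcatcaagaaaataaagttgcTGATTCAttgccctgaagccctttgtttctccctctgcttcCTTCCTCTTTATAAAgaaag
Ptgs2, chr1:150099781-150100030, + strand: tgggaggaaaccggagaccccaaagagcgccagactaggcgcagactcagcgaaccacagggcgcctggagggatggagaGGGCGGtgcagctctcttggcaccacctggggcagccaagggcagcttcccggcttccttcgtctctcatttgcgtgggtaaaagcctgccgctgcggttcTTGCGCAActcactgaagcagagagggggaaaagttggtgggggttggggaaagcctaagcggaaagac
The GAGGAAG letters lay 24 bases before the start of Ptgs1 and, on the opposite strand as CTTCCTC, 20 bases before that of Tbxas1, where they stand next to TATAAA. Of the 9 genes with an entry (Alox5ap had none), 3 held GAGGAAG in these 250 bases, the third being Hpgds at 49 bases, against 10.6% of the 32851 mouse promoters in the table. The Ptgs2 stretch held a GC box, present in 4 of the 9 genes and in 32.7% of all promoters, and TTGCGCAA, a match to the C/EBP motif on both strands, 69 bases before its start. The C/EBP motif was in 2 of the 9 genes and in 9.56% of all promoters. NF-kB, cyclic AMP response element and E-box letters were in 0 of the 9 (3.90%, 1.55% and 6.02% of all promoters), AP-1 letters in Tbxas1 alone (6.75%) and TATAAA in Tbxas1 and 1 of the 2 starts of Pla2g4a (12.4%). Exons of Tbxas1 (the last 6 bases) and of the antisense gene Gm42962 cover 146 bases of the Tbxas1 stretch, 183 bases of the Ptgs2 stretch lie in exons of the antisense RNA gene Ptgs2os, and 178 of the 250 bases searched for Hpgds lie in annotated UTR exons of Hpgds. These are matches of letters and no evidence of binding.

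Levels of the 10 genes spanned a wide range. Per kilobase of the longest coding transcript, the mean over the 23 libraries was 9162 normalized counts for Ptgs1, 4101 for Tbxas1, 3084 for Alox5ap and 1906 for Hpgds. Lta4h (891), Alox5 (672) and Pla2g4a (611) came next, then Pla2g6 (141), Ptges (27.6) and Ptgs2 (6.10). Ptgs1 ranked 101 of the 17102 genes by mean normalized count and Ptgs2 ranked 14253. The libraries thus held the transcripts of the cyclooxygenase-1, thromboxane, prostaglandin D2 and leukotriene routes in quantity, and those of cyclooxygenase-2 and of the inducible prostaglandin E synthase at low levels. Among the 6 groups, 5 of the 10 genes differed (limma's moderated F test, Benjamini-Hochberg adjusted p under 0.05 over all genes), against 31.4% of all genes tested. They were Hpgds (adjusted p = 0.000974), Pla2g6 (0.00132), Ptgs2 (0.0124), Ptges (0.0134) and Pla2g4a (0.0185). For Tbxas1 the adjusted p was 0.0557, for Alox5ap 0.0598, for Lta4h 0.0785, for Alox5 0.0849 and for Ptgs1 0.242.

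**Figure D1:**
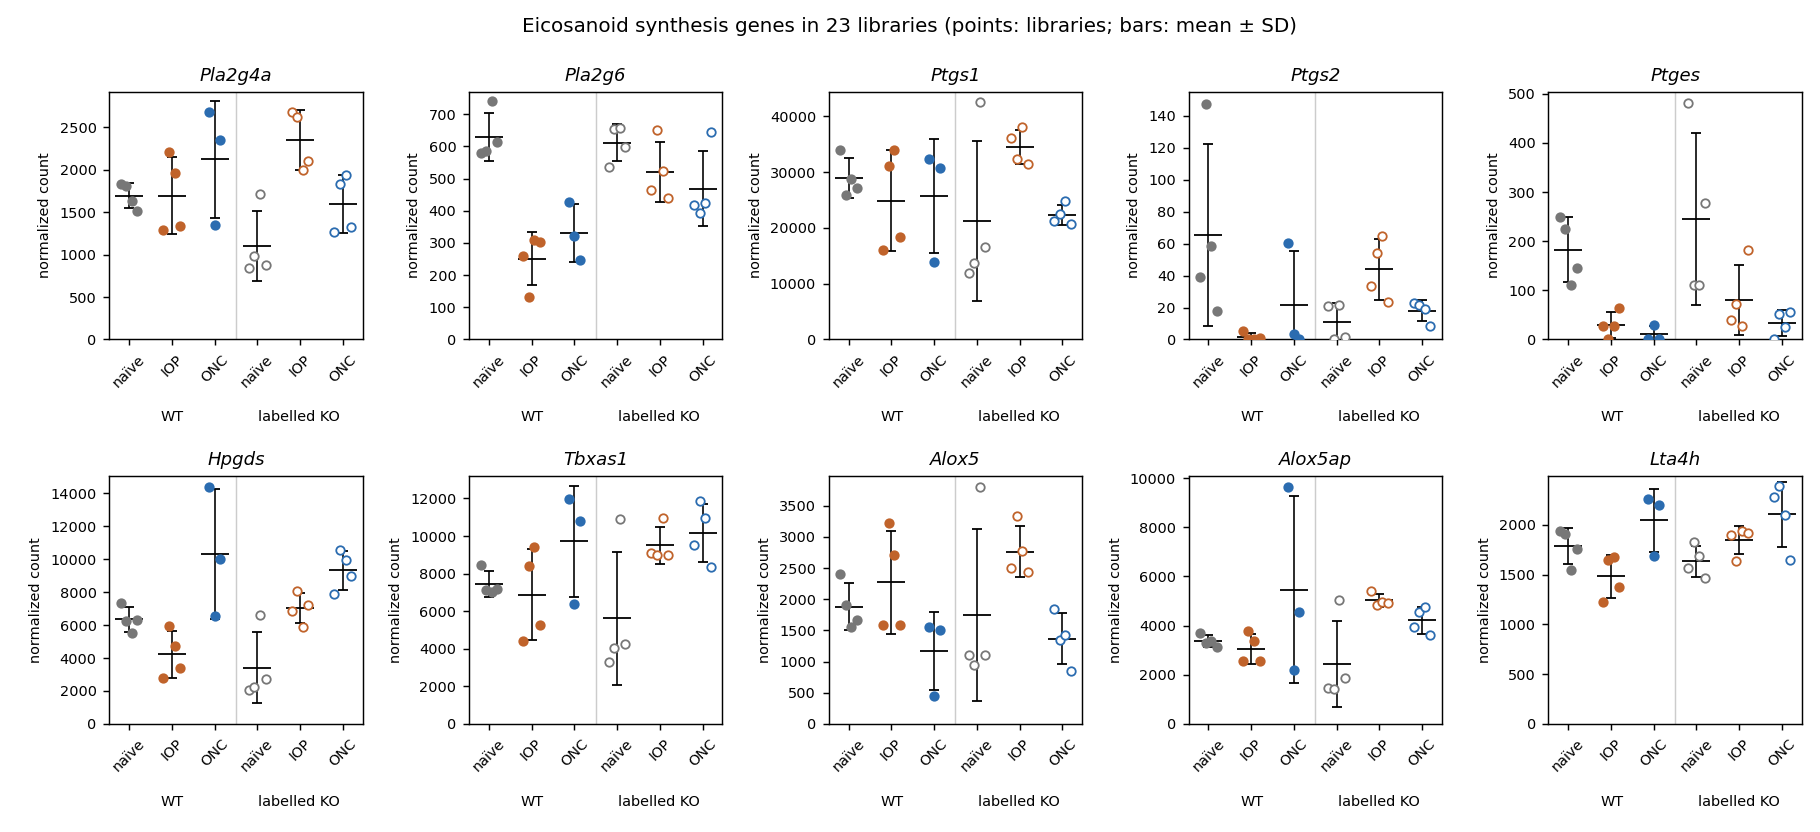
Normalized count (linear axes from 0) of the 10 genes in each library, by group; filled points are WT, open points are labelled KO, and bars give the mean and SD of the group. Pla2g6 and Ptgs2 were low in the 4 WT IOP libraries (at most 310.2 and 5.496), and in labelled KO naïve 1 library, replicate 3, sits far above the other 3 for Ptgs1, Hpgds, Tbxas1, Alox5 and Alox5ap.

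The comparisons between 2 groups were fitted with limma on log2(normalized count + 1) over all 23 libraries, and a gene was called if its adjusted p was under 0.05 and its log2 fold change beyond 0.58 in either direction. After IOP elevation in WT, 2 of the 10 genes were called, both lower, against 1.56% of all genes tested. After ONC in WT, 2 were called, both lower, against 18.1%. In the groups labelled KO, 3 were called after IOP elevation, all higher (7.88% of all genes), and 4 after ONC, 3 higher and 1 lower (23.6%). Between the genotypes, 2 were called after IOP elevation, both higher in labelled KO (2.11%). In naïve retinas the limma fit called 0 (0.409%), with 3 of 10 at p under 0.05 before adjustment, and edgeR and DESeq2 called 0. Between genotypes after ONC the limma fit called 0 genes (0.0877%), with 0 of 10 at p under 0.05 before adjustment, and edgeR and DESeq2 also called 0. The response to IOP elevation differed between genotypes for 4 genes (8.75%) and the response to ONC for 0 (0.0702%, with 2 at an unadjusted p under 0.05, and 0 by edgeR or DESeq2). The shares after ONC lie near those of all genes. The median log2 fold change of the 10 genes was -0.29 after IOP elevation in WT (-0.02 for all genes), -0.04 after ONC in WT (-0.10), 0.93 after IOP elevation in labelled KO (-0.12) and 0.46 after ONC in labelled KO (-0.12). The comparisons of IOP and ONC within a genotype share their naïve libraries. Labelled KO IOP and labelled KO naïve also differed in Cx3cr1 and Ddx3y as given above, whose part in these changes was not tested.

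**Figure D2:**
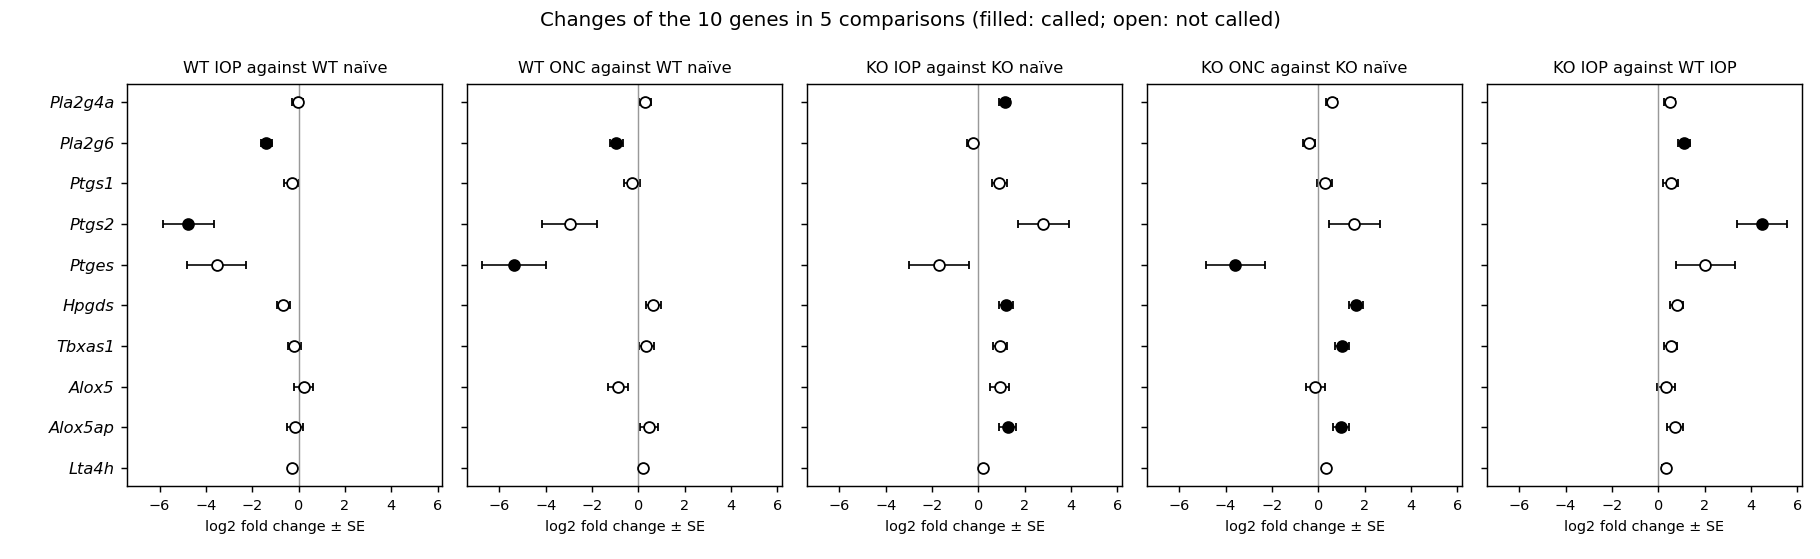
Log2 fold change with its SE (horizontal axis) of the 10 genes in 5 comparisons; filled points passed the test and open points did not. Pla2g6 was lower in WT after both injuries (-1.39 and -0.95), and the widest SEs belong to Ptgs2 and Ptges, the 2 genes with the lowest levels.

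Pla2g4a encodes the cytosolic phospholipase A2 that calcium and phosphorylation activate to free arachidonate (ENSMUSG00000056220.14, chr1:149829618-149961290, minus strand). It gave 1830, 1806, 1631 and 1514 normalized counts in WT naïve, 1287, 2209, 1961 and 1332 in WT IOP, and 2678, 1349 and 2348 in WT ONC. The 3 WT groups overlapped, and neither injury passed the test in WT (log2 fold change -0.03 ± 0.24 (SE), adjusted p = 0.971, after IOP elevation, and 0.27 ± 0.26, adjusted p = 0.498, after ONC). In the libraries labelled KO it gave 843.4, 990, 1719 and 874.5 in naïve, 2679, 2625, 1996 and 2101 after IOP elevation and 1269, 1837, 1942 and 1331 after ONC. All 4 labelled KO IOP libraries lay above all 4 labelled KO naïve libraries, and the gene rose by 1.14 ± 0.24 on the log2 scale (adjusted p = 0.0157). After ONC the difference was 0.57 ± 0.24 (adjusted p = 0.0956). The response to IOP elevation differed between the genotypes by 1.17 ± 0.35 (adjusted p = 0.0382), a call lost without any of 11 of the 16 libraries (adjusted p 0.0566 to 0.0941). The rise in labelled KO was lost without naïve replicate 1, 2 or 4 (adjusted p 0.0577 to 0.0669), at sizes of 1.03 to 1.11. With every library rescaled to the same mean level of the 9 microglia markers, the change after IOP elevation in labelled KO was 0.00 ± 0.20. On that scale the median of all genes lay at -1.26. After ONC in labelled KO the rescaled change of Pla2g4a was -0.74 ± 0.20 (adjusted p = 0.00467), called lower, with the median of all genes at -1.43.

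Pla2g6 encodes the calcium-independent phospholipase A2 beta, which acts in membrane remodelling and at mitochondria (ENSMUSG00000042632.17, chr15:79286228-79328390, minus strand). Its level was 577.9, 585.9, 739.8 and 612.9 normalized counts in WT naïve, 258.3, 132.5, 310.2 and 301.3 in WT IOP and 426.8, 321.1 and 246.8 in WT ONC. Every injured WT library lay below every WT naïve library. The gene fell by 1.39 on the log2 scale after IOP elevation (SE 0.25, adjusted p = 0.00469) and by 0.95 after ONC (SE 0.27, adjusted p = 0.0189), and the exact two-sided permutation p was 0.0286 for each, the smallest that these group sizes allow. In the libraries labelled KO it was 534.7, 654.6, 657.7 and 597.5 in naïve, 465.3, 650, 522.7 and 440.2 after IOP elevation and 416.6, 391.6, 423.2 and 644.3 after ONC. These groups overlapped, with differences of -0.25 ± 0.25 (adjusted p = 0.555) and -0.41 ± 0.25 (adjusted p = 0.248). After IOP elevation the labelled KO libraries therefore stood above the WT libraries without overlap (log2 fold change 1.11 ± 0.25, adjusted p = 0.0233), while the naïve groups differed by -0.04 ± 0.25 (adjusted p = 0.959). The difference in response was 1.15 ± 0.36 (adjusted p = 0.0481).

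The fall of Pla2g6 after IOP elevation in WT stayed called when any of the 8 libraries was left out (adjusted p 0.00389 to 0.0267), and edgeR on recovered reads gave -1.31 (adjusted p = 0.0148). The fall after ONC was lost without WT naïve replicate 3 or WT ONC replicate 3 (adjusted p 0.0561 to 0.102). The genotype difference after IOP elevation was lost without WT IOP replicate 1 or labelled KO IOP replicate 2 or 3 (adjusted p 0.0559 to 0.0713), and with 2 of the 4 labelled KO IOP libraries edgeR gave 0.97 (adjusted p = 0.153) and DESeq2 0.98 (adjusted p = 0.0368). The interaction was lost without any of 14 of 16 libraries (adjusted p up to 0.0966). Pla2g6 did not follow the microglia markers (Pearson r = -0.07 over the 23 libraries, on log2 values) or the rod markers (r = 0.02). Rescaled to the microglia markers, its log2 fold change after IOP elevation in WT was -0.90 ± 0.41 (adjusted p = 0.302), on a scale on which the median of all genes lay at 0.48. On the same scale it was called lower in labelled KO after IOP elevation (-1.38) and ONC (-1.71), with medians of all genes at -1.26 and -1.43. Lens, Cx3cr1 and Y-linked transcripts separate the same WT IOP and labelled KO IOP libraries, and their part in the Pla2g6 difference between genotypes was not tested.

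Ptgs1 encodes cyclooxygenase-1, the constitutive prostaglandin H2 synthase (ENSMUSG00000047250.13, chr2:36230426-36252272, plus strand). It was 34028, 25893, 28724 and 27152 normalized counts in WT naïve, 15959, 31041, 34029 and 18335 in WT IOP and 32298, 13869 and 30701 in WT ONC. The libraries labelled KO gave 11911, 13732, 42627 and 16629 in naïve, 36112, 32363, 38036 and 31387 after IOP elevation and 21304, 22557, 24825 and 20632 after ONC. None of the 9 comparisons passed the test, neighbours in the order of the 6 group means all overlapped, and the lowest adjusted p was 0.0835 (labelled KO IOP against naïve, log2 fold change 0.90 ± 0.32). The spread was instead tied to the microglia markers: the 2 low WT IOP libraries and the 3 low labelled KO naïve libraries of Ptgs1 are the 5 libraries low in those markers. Within groups, the correlation of Ptgs1 with the mean of the 9 markers was 0.98 over the 23 libraries. The genes most like it over all libraries were Tmem119 (r = 0.974), Adgrg1 (0.947) and Slc2a5 (0.922), and Tmem119 is itself 1 of the 9 markers.

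Per 1000 summed counts of the 9 markers, Ptgs1 was 37.6 to 44.0 in WT naïve, 42.9 to 50.3 in WT IOP and 25.2 to 31.0 in WT ONC. In the libraries labelled KO the same ratio was 48.5 to 56.6 in naïve, 42.9 to 47.9 after IOP elevation and 24.6 to 31.1 after ONC. Labelled KO naïve replicate 3, which had 3.03 times the mean Ptgs1 count of the other 3 libraries of its group, had a ratio of 53.0 and so stood among them. All 7 ONC libraries lay below all 16 others. In a fit with each library rescaled to the same mean log2 level of the 9 markers, an alternative added after the data were examined, Ptgs1 differed from naïve by -0.50 ± 0.12 after ONC in WT (adjusted p = 0.0131, under the size limit of 0.58) and by -1.03 ± 0.11 in labelled KO (adjusted p = 1.01e-05). On that scale the median of all genes lay at -0.33 and -1.43, so Ptgs1 fell less than the median gene in labelled KO. With the mean of the rod markers as a covariate, the values were -0.84 ± 0.18 (adjusted p = 0.0034) and -0.75 ± 0.19 (adjusted p = 0.0305). The markers themselves were not constant: after ONC they ranged from -0.76 (P2ry12) to 1.35 (Aif1) in WT on the unscaled data.

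**Figure D3:**
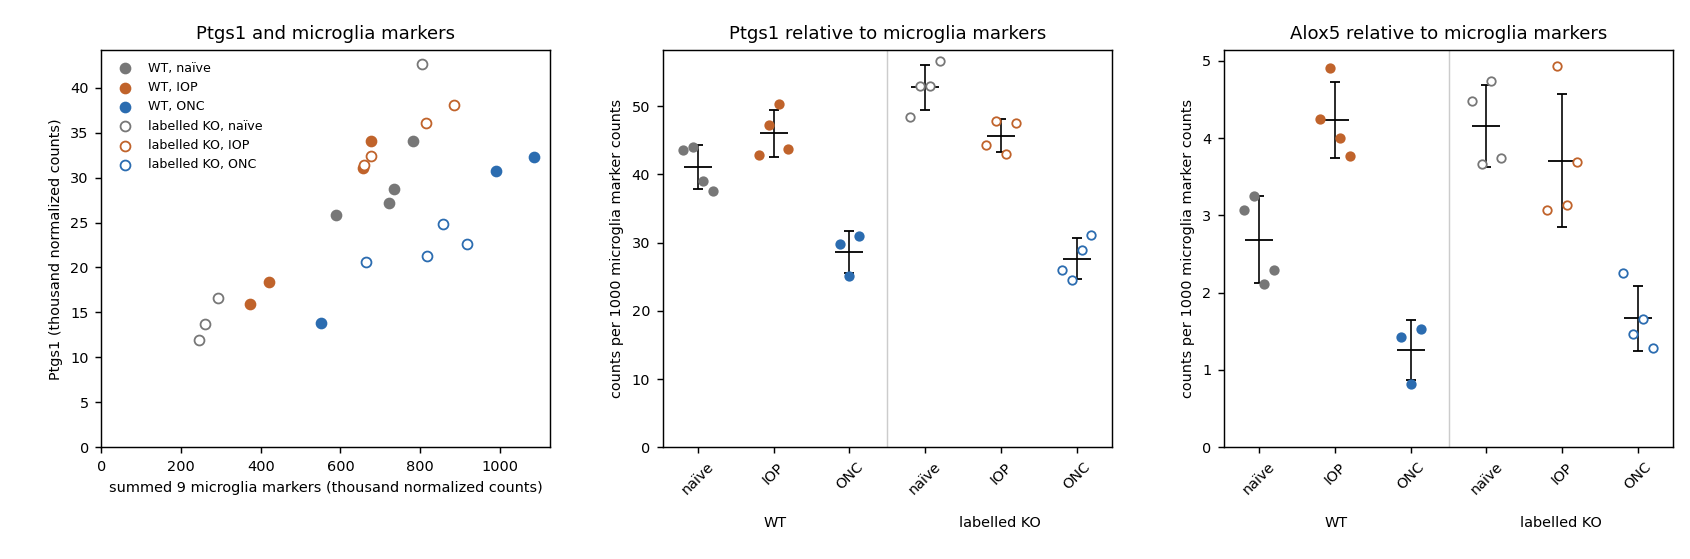
Left, Ptgs1 against the summed 9 microglia markers, both in units of 1000 normalized counts, 1 point per library; middle and right, Ptgs1 and Alox5 per 1000 summed marker counts by group, with mean and SD (filled, WT; open, labelled KO). Relative to the markers, the 7 ONC libraries lie below all others for Ptgs1 (at most 31.1 against at least 37.6), while for Alox5 those labelled KO (1.29 to 2.26) overlap WT naïve (2.12 to 3.26).

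Ptgs2 encodes cyclooxygenase-2, the inducible enzyme (ENSMUSG00000032487.8, chr1:150100031-150108227, plus strand), and was near the limit of detection in many libraries, where 3 reads correspond to 2.41 to 4.03 normalized counts. It gave 39.06, 147.1, 58.27 and 17.64 normalized counts in WT naïve, 5.496, 0, 0 and 0.8863 in WT IOP and 60.39, 3.452 and 0 in WT ONC. The 4 WT IOP libraries held 7 reads of Ptgs2 in all, against 312 reads in the 4 WT naïve libraries, and the 2 groups did not overlap. The log2 fold change was -4.76 ± 1.10 (adjusted p = 0.0293, exact two-sided permutation p = 0.0286). The libraries labelled KO gave 21.23, 0, 21.31 and 1.7 in naïve, 33.6, 54.25, 64.96 and 23.22 after IOP elevation and 22.75, 21.75, 19.29 and 8.332 after ONC. All 4 labelled KO IOP libraries lay above all 4 WT IOP libraries (4.48 ± 1.10, adjusted p = 0.0347), and their range of 23.22 to 64.96 lay within the 17.64 to 147.1 of WT naïve. Labelled KO IOP also lay above labelled KO naïve without overlap, at an adjusted p of 0.11. The difference in response to IOP elevation between genotypes was 7.55 ± 1.56 (adjusted p = 0.00885), and it was called without any 1 of the 16 libraries (adjusted p 0.00149 to 0.0241). It was lost by edgeR (7.38, adjusted p = 0.0619) and with the rod covariate (6.34, adjusted p = 0.082), kept by DESeq2 (7.50, adjusted p = 0.00775), and was 5.92 when rescaled to the microglia markers (adjusted p = 0.00712).

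At this depth the size of these changes depends on the number added before the logarithm: with 0.5 or 5 in place of 1, the fall in WT IOP was -5.38 or -3.15. It was lost without WT naïve replicate 1, 2 or 3 or WT IOP replicate 2, 3 or 4 (adjusted p 0.0607 to 0.113), and by edgeR on recovered reads (-5.22, adjusted p = 0.126), and kept by DESeq2 (-5.34, adjusted p = 0.00579). The genotype difference after IOP elevation was lost without any of 7 of the 8 libraries, the exception being WT IOP replicate 1 (adjusted p 0.0551 to 0.109), and by edgeR (4.82, adjusted p = 0.192) and DESeq2 (4.93, adjusted p = 0.0517). Lens, Cx3cr1 and Y-linked transcripts separate the same WT IOP and labelled KO IOP libraries. Their part in this difference and in the difference in response was not tested. After ONC, Ptgs2 was not called in WT (-2.96 ± 1.19, adjusted p = 0.0855), and it was called without WT ONC replicate 1, the library with 60.39 (adjusted p = 0.0158). Its correlation with the microglia markers was 0.40 over the 23 libraries and 0.17 within groups. The most similar genes, Mycl (r = 0.751), Rrp1 (0.727) and Ly6g6d (0.676), were less alike than those of the abundant genes.

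Ptges encodes the microsomal prostaglandin E synthase that acts downstream of cyclooxygenase-2 (ENSMUSG00000050737.13, chr2:30889471-30929863, minus strand). It gave 249.4, 225.5, 110.6 and 145.8 normalized counts in WT naïve, 27.48, 0, 27.35 and 63.81 in WT IOP and 1.342, 29.92 and 0 in WT ONC. Every injured WT library lay below every WT naïve library. The log2 fold change was -5.39 ± 1.38 after ONC (adjusted p = 0.00983) and -3.53 ± 1.28 after IOP elevation (adjusted p = 0.206). In the libraries labelled KO it gave 480.1, 110.2, 111.4 and 277.1 in naïve, 39.71, 71.32, 26.81 and 182.8 after IOP elevation and 0, 52.21, 25.72 and 56.47 after ONC. The labelled KO ONC libraries lay below the naïve ones without overlap, and the gene fell by 3.58 on the log2 scale (SE 1.28, adjusted p = 0.0445). The fall in WT was lost without WT ONC replicate 1 or 3 (adjusted p 0.0588 to 0.0645), and the fall in labelled KO without naïve replicate 1, 2 or 4 or ONC replicate 1 or 3 (adjusted p 0.064 to 0.186). On recovered reads neither was called by edgeR (-4.10 and -2.86, adjusted p = 0.0544 and 0.0799) and both were by DESeq2 (-4.13 and -2.86, adjusted p = 0.00522 and 0.0315). With the rod markers as a covariate the 2 differences were -4.45 (adjusted p = 0.0441) and -1.92 (adjusted p = 0.593). The genes most like Ptges were Glra3 (r = 0.872), 2410002F23Rik (0.868) and Rimbp2 (0.857). Its correlation was -0.47 with the microglia markers and 0.48 with the rod markers. Glra3 and Rimbp2 encode a glycine receptor subunit and a presynaptic protein of neurons. How much of the Ptges transcript came from cells other than microglia was not tested.

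Hpgds encodes the haematopoietic prostaglandin D synthase (ENSMUSG00000029919.5, chr6:65117293-65144908, minus strand). It gave 7358, 6243, 5496 and 6333 normalized counts in WT naïve, 2788, 5975, 4703 and 3396 in WT IOP and 14412, 6564 and 10026 in WT ONC. The ONC mean was 163% and the IOP mean 66.3% of the WT naïve mean, and neither passed the test (0.64 ± 0.32, adjusted p = 0.166, and -0.65 ± 0.30, adjusted p = 0.346). Without WT ONC replicate 2, the ONC library lowest in microglia markers, the first was 0.93 (adjusted p = 0.0447). The libraries labelled KO gave 2085, 2239, 6605 and 2730 in naïve, 6834, 8102, 5907 and 7239 after IOP elevation and 7862, 10589, 9930 and 8983 after ONC. The ONC libraries lay above all 4 naïve libraries, and Hpgds rose by 1.62 ± 0.30 (adjusted p = 0.000533), a call kept without any 1 of the 8 libraries and by edgeR (1.44, adjusted p = 0.00466). After IOP elevation it rose by 1.20 ± 0.30 (adjusted p = 0.0231), which was lost without naïve replicate 1, 2 or 4 or IOP replicate 2 (adjusted p 0.0553 to 0.0998). The difference in response to IOP elevation between the genotypes was 1.85 ± 0.42 (adjusted p = 0.0131), called without any 1 of the 16 libraries and by DESeq2 (adjusted p = 0.0424), but lost by edgeR (1.49, adjusted p = 0.0929), with the rod covariate (0.94, adjusted p = 0.0892) and on rescaling to the microglia markers (0.22, adjusted p = 0.409).

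Hpgds followed the microglia markers closely (r = 0.94 over the 23 libraries), and in labelled KO these markers moved the same way: 7 of the 9 were called higher after ONC and 5 of the 9 after IOP elevation. Per 1000 marker counts Hpgds was 7.48 to 10.6 in WT naïve and 10.1 to 13.3 in WT ONC, and 8.21 to 9.29 in labelled KO naïve and 9.61 to 13.6 in labelled KO ONC. On the scale of the markers, the median of all genes in labelled KO lay at -1.43 after ONC and -1.26 after IOP elevation. Rescaled to the markers, the rises in labelled KO were 0.31 ± 0.16 after ONC (adjusted p = 0.098) and 0.07 ± 0.16 after IOP elevation (adjusted p = 0.72). Without the 5 libraries low in microglia markers, which leaves labelled KO naïve replicate 3 alone in its group and assumes that it varies like the others, they were 0.49 (adjusted p = 0.571) and 0.08 (adjusted p = 1).

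Tbxas1 encodes thromboxane A synthase (ENSMUSG00000029925.13, chr6:38875404-39084585, plus strand). It gave 8463, 7113, 7041 and 7192 normalized counts in WT naïve, 4393, 8410, 9430 and 5241 in WT IOP and 11962, 6362 and 10818 in WT ONC. The WT groups overlapped, and neither injury passed the test (adjusted p = 0.839 and 0.483). The libraries labelled KO gave 3302, 4023, 10914 and 4268 in naïve, 9112, 8984, 10981 and 8966 after IOP elevation and 9543, 11873, 10952 and 8364 after ONC. Tbxas1 rose after ONC in labelled KO by 1.02 ± 0.29 (adjusted p = 0.0147), and the same comparison after IOP elevation gave 0.93 ± 0.29 (adjusted p = 0.0541). The rise was lost without naïve replicate 1 or 2 (adjusted p 0.0539 to 0.0619), and both groups overlapped with naïve only through naïve replicate 3. Tbxas1 had the strongest tie of the 10 genes to the microglia markers (r = 0.96, and 0.98 within groups), and its ratio to them was 9.59 to 12.1 per 1000 in WT naïve, 13.4 to 15.5 in labelled KO naïve and 10.9 to 13.9 over the other 4 groups. The naïve groups did not overlap in this ratio. Its nearest genes were Cd37 (r = 0.971), Irf5 (0.970) and Fermt3 (0.970), all of myeloid or other blood cells. An antisense gene, Gm42962, shares 1.58% of its exonic bases.

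Alox5 encodes 5-lipoxygenase, the first enzyme of the leukotriene arm (ENSMUSG00000025701.12, chr6:116410077-116461178, minus strand). It gave 2400, 1914, 1554 and 1660 normalized counts in WT naïve, 1580, 3222, 2706 and 1584 in WT IOP and 1551, 447.6 and 1511 in WT ONC. All 3 WT ONC libraries lay below the lowest WT naïve library, replicates 1 and 3 by little and replicate 2 by far, with a log2 fold change of -0.87 ± 0.43 (adjusted p = 0.164, exact two-sided permutation p = 0.0286). The libraries labelled KO gave 1101, 950.6, 3809 and 1100 in naïve, 2507, 3332, 2776 and 2433 after IOP elevation and 1848, 1344, 1427 and 852.6 after ONC. None of the 9 comparisons was called. Relative to the microglia markers the 3 WT groups did not overlap: per 1000 marker counts Alox5 was 2.12 to 3.26 in WT naïve, 3.77 to 4.91 in WT IOP and 0.812 to 1.53 in WT ONC. In the libraries labelled KO this ratio was 3.67 to 4.74 in naïve, 3.08 to 4.93 after IOP elevation and 1.29 to 2.26 after ONC. Rescaled to the markers, Alox5 was lower after ONC in both genotypes (WT -1.10 ± 0.26, adjusted p = 0.00999; labelled KO -1.44 ± 0.24, adjusted p = 0.000259), and with the rod covariate it was -1.56 ± 0.26 (adjusted p = 0.000367) and -1.37 ± 0.28 (adjusted p = 0.00674). In labelled KO the median of all genes on the first scale lay at -1.43, next to the value of Alox5. The difference in response to IOP elevation between genotypes on the first scale was -0.93 ± 0.34 (adjusted p = 0.0294), with the median of all genes at -1.71. The genes most like it were Tgfbi (r = 0.913), Siglece (0.899) and Ccnd1 (0.887).

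Alox5ap encodes FLAP, the membrane protein that presents arachidonate to 5-lipoxygenase (ENSMUSG00000060063.9, chr5:149264767-149288153, plus strand). It gave 3681, 3281, 3377 and 3108 normalized counts in WT naïve, 2539, 3760, 3355 and 2544 in WT IOP and 9642, 2178 and 4567 in WT ONC. The WT ONC libraries lay on both sides of the naïve ones (0.45 ± 0.38, adjusted p = 0.425), and without replicate 2 the difference was 0.98 (adjusted p = 0.0413). Labelled KO libraries had 1457, 1427, 5043 and 1854 in naïve, 5410, 4815, 4942 and 4925 after IOP elevation and 3935, 4547, 4744 and 3599 after ONC. The gene rose by 1.26 ± 0.35 after IOP elevation (adjusted p = 0.0344) and by 0.99 ± 0.35 after ONC (adjusted p = 0.0415) in labelled KO. The first call was lost without any of 7 of the 8 libraries, the exception being naïve replicate 3 (adjusted p 0.0627 to 0.131), and the second without naïve replicate 1, 2 or 4 or ONC replicate 1, 2 or 3 (adjusted p 0.0658 to 0.142). Rescaled to the microglia markers, with which its correlation was 0.90, the values were 0.12 ± 0.20 and -0.31 ± 0.20, and neither was called. The medians of all genes on that scale lay at -1.26 and -1.43. After IOP elevation the labelled KO libraries lay above all WT libraries (0.74 ± 0.35, adjusted p = 0.229, exact two-sided permutation p = 0.0286). The antisense gene Gm19719 shares 13.3% of the exonic bases of Alox5ap, so reads from the 2 cannot be told apart there if the counting ignored strand.

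Lta4h encodes leukotriene A4 hydrolase, a widely expressed enzyme (ENSMUSG00000015889.8, chr10:93453411-93484875, plus strand). It was the steadiest of the 10 genes, with 1550 to 1937 normalized counts in WT naïve, 1227 to 1679 in WT IOP and 1682 to 2257 in WT ONC. In the libraries labelled KO it was 1464 to 1825 in naïve, 1641 to 1938 after IOP elevation and 1647 to 2393 after ONC. None of the 9 comparisons passed the test, and the largest difference between an injured and its naïve group was 0.35 ± 0.15 (labelled KO ONC, adjusted p = 0.0891). Its correlation with the microglia markers was 0.66. The direction in labelled KO turned with the scale: rescaled to those markers, Lta4h was called lower after IOP elevation (-0.96) and ONC (-0.95), where the median of all genes lay at -1.26 and -1.43. The rescaled difference in response to IOP elevation between genotypes was -1.17 ± 0.38 (adjusted p = 0.0164), with the median of all genes at -1.71. The genes most like Lta4h were Slc35c2 and Chd9 (both r = 0.837) and Wdr1 (0.836).

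In naïve retinas, 9 of the 10 genes had a lower fitted level in labelled KO than in WT, and none was called. The exception was Ptges, with 0.21 ± 1.28. Replicate 3 of labelled KO naïve stood apart from the other 3 libraries, at 3.63 times their mean for Alox5, 3.19 for Alox5ap, 3.03 for Ptgs1, 2.82 for Tbxas1, 2.81 for Hpgds and 1.90 for Pla2g4a, against 1.04 for Lta4h and 1.10 for Pla2g6. It is the library of its group with the microglia markers at the level of WT (804153 against at most 293700). It is also the library of its group with low Ddx3y (28.09 against at least 1302). Without it, 6 of the 10 genes were called lower in labelled KO naïve, against 7.27% of all genes: Hpgds (-1.44, adjusted p = 0.000711), Tbxas1 (-0.95, 0.0125), Ptgs1 (-1.04, 0.0148), Pla2g4a (-0.91, 0.0156), Alox5ap (-1.10, 0.0216) and Ptgs2 (-3.69, 0.0481). Rescaled to the microglia markers, with all libraries in, Lta4h (0.93 ± 0.27, adjusted p = 0.0218), Pla2g6 (1.01 ± 0.41, 0.0497) and Alox5 (0.70 ± 0.24, 0.0328) were higher in labelled KO naïve, on a scale on which 6949 of the 17102 genes were called and the median of all genes lay at 1.08. The direction between naïve genotypes thus turned with the scale for these 3 genes (-0.36 for Alox5, -0.13 for Lta4h and -0.04 for Pla2g6 unscaled), and also for Ptgs1, Tbxas1, Pla2g4a and Alox5ap, which lay at 0.38 to 0.48 on the rescaled data.

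The other genes of the pathway were counted from 6 lists with 97 genes, 85 of which were tested. In WT, 1 was higher and 0 lower after IOP elevation (1.56% of all genes were called), and 7 were higher and 4 lower after ONC (18.1%). In the groups labelled KO, 6 were higher and 3 lower after IOP elevation (7.88%), and 15 higher and 12 lower after ONC (23.6%). Their median log2 fold changes in these 4 comparisons were -0.07, -0.02, -0.07 and -0.13, close to the -0.02, -0.10, -0.12 and -0.12 of all genes. Between genotypes, 1 was higher and 3 lower in labelled KO after IOP elevation, and in naïve retinas and after ONC 0 of the 85 were called.

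Among genes of arachidonate release, Daglb and Abhd12, which act in the making and breakdown of the endocannabinoid 2-arachidonoylglycerol and its relatives, were the most abundant. Abhd12 was 7944 ± 6877 (SD, n = 4) in WT naïve and 32974 ± 12620 (n = 3) in WT ONC, and rose by 2.36 ± 0.67 (adjusted p = 0.0178). Daglb rose in labelled KO by 0.93 ± 0.28 after IOP elevation (adjusted p = 0.0447) and by 1.31 ± 0.28 after ONC (adjusted p = 0.00178). Pla2g7, the platelet-activating factor acetylhydrolase, went the other way: it was 2731, 3299, 2418 and 2988 in WT naïve and 1088, 1336 and 861 in WT ONC. It fell by 1.40 in WT (adjusted p = 0.000326) and by 1.01 in labelled KO (adjusted p = 0.00216) after ONC. It was also lower after ONC when rescaled to the microglia markers (-1.63, adjusted p = 0.0191, and -2.31, adjusted p = 0.00028). The medians of all genes on that scale lay at -0.33 and -1.43. The secreted phospholipases Pla2g2f, Pla2g3 and Pla2g2d, none of which passed 393.1 normalized counts in any library, were lower in labelled KO than in WT after IOP elevation (-5.23, -4.14 and -2.45). Pla2g2f was at 0 in all 4 labelled KO IOP libraries, so its fitted fold depends on the number added before the logarithm. Of the monoacylglycerol and amide hydrolases, Mgll (-1.31) and Faah (-1.19) fell after ONC in labelled KO, as did the phospholipase Pla2g5 (-1.51).

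Of the 7 other prostanoid synthases, only Akr1b3, an aldose reductase with prostaglandin F synthase activity, was called. It rose by 1.03 ± 0.28 after ONC in WT (adjusted p = 0.0134), and in labelled KO by 0.85 ± 0.26 after IOP elevation (adjusted p = 0.0455) and 1.28 ± 0.26 after ONC (adjusted p = 0.00115). Ptgds, the lipocalin-type prostaglandin D synthase of glia, meninges and pigment epithelium, was 42663, 10242, 807 and 12137 in labelled KO naïve and 595 to 2256 in WT naïve. It was also 8463 and 8005 in labelled KO IOP replicates 2 and 4 and 16546 in labelled KO ONC replicate 4, where Hpgds was 8102, 7239 and 8983. Among leukotriene genes, Cotl1, a partner protein of 5-lipoxygenase, rose after ONC by 1.53 ± 0.44 in WT (adjusted p = 0.019) and by 2.10 ± 0.41 in labelled KO (adjusted p = 0.000853). Ltc4s, which makes leukotriene C4, was 2368 ± 322 in WT naïve and 1998 ± 1249 in WT ONC, and rose in labelled KO after IOP elevation (1.06 ± 0.32, adjusted p = 0.0459). Alox12b fell after ONC in both (-4.01 and -3.13), and Aloxe3 was the 1 gene of the 85 to rise after IOP elevation in WT (2.57 ± 0.61, adjusted p = 0.0333). Both are lipoxygenases of skin and had group means of at most 179 here.

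Of breakdown and transport, Hpgd, which inactivates prostaglandins, was among the most abundant with 12333 in WT naïve and 7434 to 10932 as means of the other groups, and was not called. Cyp4f18, a hydroxylase of leukotriene B4, was 606 to 914 in WT naïve and 2021 to 9043 in WT ONC. It rose by 2.47 ± 0.43 in WT after ONC (adjusted p = 0.000391), and in labelled KO by 1.93 ± 0.40 after IOP elevation (adjusted p = 0.0126) and 2.24 ± 0.40 after ONC (adjusted p = 0.000411). These 3 calls held when rescaled to the microglia markers (2.23, 0.80 and 0.94). The epoxide hydrolase Ephx1 rose after ONC in both (1.41 and 1.17), while Ephx2 fell in labelled KO (-1.30, adjusted p = 0.00229). In labelled KO the rescaled values after ONC were -0.14 for Ephx1, -0.02 for Akr1b3, 0.01 for Daglb and 0.62 for Abhd12, none of them called, and 0.80 for Cotl1, which was. The median of all genes lay at -1.43 there. The transporter Slco2b1 and the reductase Ptgr1 rose after ONC in labelled KO (1.01 and 1.71), as did the markers, whereas Cyp2j6 fell (-1.87).

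Of 19 receptors 15 were tested, and Ptger4, the EP4 receptor for prostaglandin E2, stood out by its counts. It was 15.98, 26.96, 84.46 and 51.08 normalized counts in WT naïve, 152.1, 169.7, 24.52 and 18.61 in WT IOP and 873.7, 310.7 and 466.7 in WT ONC. Labelled KO libraries had 88.17, 61.92, 101.7 and 21.25 in naïve, 246.4, 500.3, 707.3 and 670.5 after IOP elevation and 565.1, 624.3, 479 and 245.3 after ONC. Every WT ONC, labelled KO IOP and labelled KO ONC library lay above every library of the other 3 groups. Ptger4 rose by 3.72 ± 0.74 after ONC in WT (adjusted p = 0.00131) and by 3.04 ± 0.68 (adjusted p = 0.0174) and 2.92 ± 0.68 (adjusted p = 0.00359) after IOP elevation and ONC in labelled KO. After IOP elevation it was higher in labelled KO than in WT by 3.03 ± 0.68 (adjusted p = 0.0214), although the difference in response was not called. Lens, Cx3cr1 and Y-linked transcripts separate the same libraries, and their part in this genotype difference was not tested. The 3 rises after injury were also called when rescaled to the microglia markers (3.49, 1.91 and 1.62). The genotype difference after IOP elevation was not called on that scale (2.46, adjusted p = 0.0777). The leukotriene receptor Cysltr1 and the resolvin E1 receptor Cmklr1 rose after ONC in labelled KO (1.02 and 0.91) and were called in no other of the 9 comparisons.

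**Figure D4:**
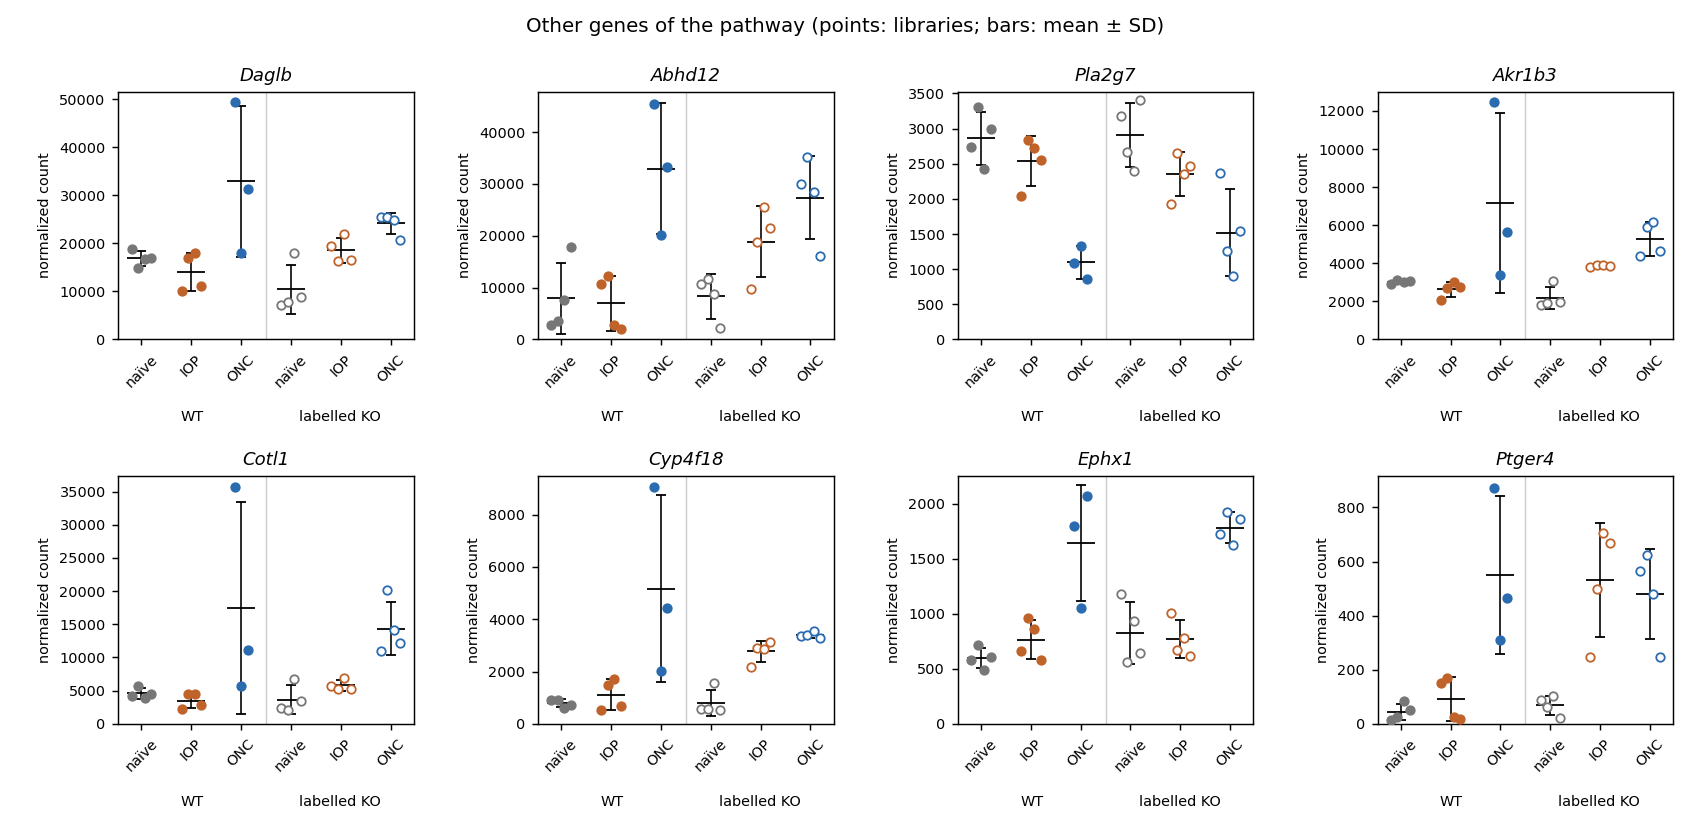
Normalized count (linear axes from 0) of 8 other genes of the pathway in each library, by group; filled points are WT, open points labelled KO, bars mean and SD. Pla2g7 is low in WT ONC (861 to 1336), and Ptger4 is at least 245.3 in WT ONC, labelled KO IOP and labelled KO ONC against at most 169.7 in the other groups.

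All 14 enzymes that return arachidonate to phospholipids, or that activate it for this, were tested. Lpcat2, which also makes platelet-activating factor, was the most abundant, at 24751 ± 1573 in WT naïve and 44131 ± 20238 in WT ONC. In WT only Lpcat1 was called, 1.90 ± 0.52 higher after ONC (adjusted p = 0.0144). After ONC in labelled KO, Acsl5 (1.21), Lpcat2 (1.01), Mboat7 (0.96) and Lpcat3 (0.87) rose, and Agpat3 (-1.26), Acsl6 (-1.20) and Lpgat1 (-0.86) fell. After IOP elevation in labelled KO, Acsl5 rose (0.98) and Agpat3 fell (-0.91). Of the 85 genes, the response to IOP elevation differed between genotypes for Ltc4s (1.49) and Acsl5 (1.17), higher in labelled KO, and for Pla2g2f (-7.10), Pla2g3 (-4.71), Aloxe3 (-3.34), Pla2g2d (-3.33) and Agpat3 (-1.42), lower. Labelled KO naïve replicates 1, 2 and 4 were low in microglia markers and replicate 3 was not, and the part of these markers in the changes of the list genes was not tested beyond the rescaled values given.

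Alternatives added after the data were examined bear on the genotype labels and on library make-up. Without the 6 libraries labelled KO that had over 100 normalized counts of Spp1, 0 of the 10 genes were called in any comparison that involves a group labelled KO, with 3 labelled KO naïve, 2 labelled KO IOP and 1 labelled KO ONC libraries left, the last assumed to vary like the other groups. The sizes were then 8.36 for the Ptgs2 difference in response to IOP elevation (adjusted p = 0.0597), 4.67 for Ptgs2 and 1.05 for Pla2g6 between genotypes after IOP elevation, and 1.02 for Pla2g4a in labelled KO IOP. Without the 5 libraries low in microglia markers, 0 were called in those comparisons and 0 after IOP elevation in WT, while Hpgds, Pla2g6 and Ptges were called after ONC in WT. The sizes for WT IOP were -5.66 for Ptgs2 and -1.62 for Pla2g6, and between genotypes after IOP elevation 5.39 and 1.34, all larger than with every library in, whereas the Ptgs2 difference in response to IOP elevation was 6.57 (adjusted p = 0.392) and the Pla2g4a change in labelled KO IOP was 0.44. The exact permutation tests covered 10 genes in 7 comparisons, are not adjusted for that number and cannot go below p = 0.0286.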

How the data were processed

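RNA-seq of sorted GFP+ retinal microglia gave 23 libraries in 6 groups. The deposited values are gene-level counts that the authors had divided by DESeq2 size factors, a signal rather than raw counts. The study's methods name salmon and the submitters' processing notes name STAR for the step before. Strand use in counting is not given in the sources used here. Columns were matched to samples by name, and 0 columns were left over. In all 23 libraries the values are whole multiples of 1 step (tolerance 0.01 reads). Reads were recovered in 21, which gave 22180480 to 30296094 reads (median 27114209), so that 3 reads correspond to 2.41 to 4.03 normalized counts. In KO IOP replicates 2 and 4 the steps of 1.005 and 1.010 lie too near 1 for an automated test of recovery, so these were left out of the count models, in which KO IOP has 2 libraries. Correlations between replicates were 0.876 to 0.956, and 0 pairs of libraries were identical.

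Identifiers were matched to GENCODE names, 34732 with their version and 704 without it of 35825. The 17102 genes that reached 10 normalized counts in 3 or more libraries were fitted with limma 3.58.1 (R 4.3.3, trend in the prior variance) on log2(normalized count + 1), which understates the change of low genes, with Benjamini-Hochberg adjustment over all genes tested. Calls needed an adjusted p under 0.05 together with a log2 fold change beyond 0.58 in either direction. Exact permutation tests used the absolute difference of group means of the log2 values. The fitting code was tested on simulated data. The 10 genes, the pathway lists and the marker lists were chosen with earlier results of these data known. Other genes named are those of the pathway lists called in at least 1 of 9 comparisons or among the 2 highest of their list, and the 3 genes with the highest Pearson correlation to each of the 10. Promoters shown were chosen after the values were seen.

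Alternatives were quantile and upper-quartile scaling, other pseudocounts (0.5, 5), a filter on the mean (50 or more), no filter, a rod marker covariate, the compared groups alone, a replicate block, edgeR 4.0.16 and DESeq2 1.42.0 on recovered reads, and each library left out. Rescaling to the microglia markers without Cx3cr1 (which carries the reporter), leaving out 6 libraries labelled KO with Spp1 over 100 and leaving out 5 libraries with microglia markers under 0.67 of the WT naïve median were added after the data were examined. The microglia marker sum holds 9 genes, and values of 1 of them on its own are not reported here. Promoters are RefSeq sequences. Plots used matplotlib 3.10.9 and tables pandas 2.3.3 and numpy 2.4.6 under Python 3.11.15.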

Additional observations from a re-analysis of the deposited data

Results flagged for a closer look

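Of 50 gene and group combinations with 4 libraries, 11 held a library far from the other 3 by Dixon's test, and chance alone flags about 1 in 20. Labelled KO naïve replicate 3 was the high library for 6 genes: Ptgs1 (42627 normalized counts), Tbxas1 (10914), Hpgds (6605), Alox5ap (5043), Alox5 (3809) and Pla2g4a (1719). It is also the library of its group with the most microglia marker counts (804153). The other 5 were Ptgs2 in WT IOP replicate 1 (5.496), Pla2g6 in labelled KO ONC replicate 4 (644.3), Tbxas1 in WT naïve replicate 1 (8463) and in labelled KO IOP replicate 3 (10981), and Lta4h in labelled KO IOP replicate 2 (1641, the low library).

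The response to IOP elevation differed between labelled KO and WT, by the interaction term of the limma fit, for Ptgs2 (7.55 on the log2 scale), Hpgds (1.85), Pla2g4a (1.17) and Pla2g6 (1.15). Of the 9 microglia markers, 6 had a called interaction in the same direction (0.79 to 2.48 over the 9), and the part of the markers in these 4 results was not tested beyond the rescaled values.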

How the results depend on the processing

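Of the 17 single-gene calls, 235 refits under other settings kept 140, lost 87 and turned 8, and 166 refits without 1 library kept 94, lost 72 and turned 0. The 8 turned values were, rescaled to the microglia markers, Pla2g6 (-0.48) and Pla2g4a (-0.46) for the genotype difference in response to IOP elevation and Alox5ap (-0.31) and Tbxas1 (-0.28) for labelled KO ONC; without the libraries low in microglia markers, Alox5ap for labelled KO IOP (-0.01) and ONC (-0.27) and Tbxas1 for ONC (-0.11); and with the rod covariate Alox5ap for labelled KO ONC (-0.15). The cause was not tested.

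The number of the 10 genes called moved as follows. Among the 6 groups it was 5, and 8 on rescaling to microglia markers, 2 without the libraries labelled KO with Spp1 and 3 without those low in microglia markers. For WT IOP it was 2, and 1 with a mean of at least 50, by edgeR or without the Spp1 libraries, and 0 on rescaling or without the libraries low in microglia markers. For WT ONC it was 2, and 4 with the rod covariate and 1 by edgeR or with the groups alone. For labelled KO IOP against naïve it was 3, and 1 by DESeq2 and 0 by edgeR, with the rod covariate, with the groups alone or without either set of libraries. For labelled KO ONC against naïve it was 4, and 2 with no filter, 1 by edgeR or with the groups alone and 0 without either set. On rescaling it was 2 for labelled KO IOP against naïve (Lta4h and Pla2g6), both lower. For labelled KO ONC it was 6 on rescaling, all lower: Ptgs1, Ptges, Pla2g4a, Pla2g6, Alox5 and Lta4h. The calls of Hpgds, Alox5ap, Tbxas1 and Pla2g4a as higher were lost on that scale. For the difference in response to IOP elevation it was 3 on rescaling, with Ptgs2 higher and Lta4h and Alox5 lower. Between naïve genotypes the number was 0, and 1 with quantile normalization and 3 on rescaling. Between genotypes after IOP elevation it was 2, and 1 with no filter, a mean of at least 50, the groups alone or DESeq2, and 0 with the rod covariate, edgeR, rescaling or without either set. For the difference in response to IOP elevation it was 4, and 2 with no filter, upper-quartile rescaling or DESeq2, and 0 with the rod covariate, edgeR or without either set.

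With 1 library left out, these counts were 4 to 9 among the 6 groups, 1 to 2 (WT IOP), 0 to 4 (WT ONC), 0 to 7 (labelled KO IOP), 1 to 5 (labelled KO ONC), 0 to 6 (naïve genotypes), 0 to 1 (genotypes after IOP elevation), 2 to 7 (response to IOP elevation) and 0 to 1 (response to ONC). Between genotypes after ONC the count was 0 without any 1 library.

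Replicate numbers did not pair the libraries: deviations of same-numbered libraries had correlations of -0.253 to 0.23 (median 0.00465), with 10 of 55 over 0.1, and 7 of 23 libraries correlated best with their own number. With the replicate block the counts were 6 among the 6 groups, 2 for WT IOP, 2 for WT ONC, 4 for labelled KO IOP, 4 for labelled KO ONC, 2 for genotypes after IOP elevation, 3 for the difference in response to IOP elevation and 0 for the other 3 comparisons.

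Over all genes the calls ranged over the alternatives, other than the refits without 1 library, from 1966 to 9903 among the 6 groups (5370 as reported), 27 to 580 for WT IOP (267), 1450 to 3585 for WT ONC (3093), 5 to 9243 for labelled KO IOP (1347), 112 to 10535 for labelled KO ONC (4043), 1 to 6949 for naïve genotypes (70), 20 to 769 for genotypes after IOP elevation (360), 2 to 85 after ONC (15), 16 to 9123 for the response to IOP elevation (1496) and 0 to 200 for that to ONC (12). Some refits without 1 library went beyond these ranges. Without WT ONC replicate 2, the calls were 744 for genotypes after ONC and 5213 for WT ONC. Without labelled KO naïve replicate 3, they were 633 for the response to ONC. Depth limits Ptgs2 and Ptges, which lay at or under 3 reads in some libraries.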
